A study of Caenorhabditis elegans with 2 samples.

Results

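The cytosolic ribosomal protein genes of Caenorhabditis elegans were examined in a ChIP-seq experiment on NHR-28, a nuclear hormone receptor. Members were all protein-coding genes whose symbol is rpl- or rps- followed by a digit. This gave 78 of 19985 protein-coding genes, 47 of the large subunit (rpl) and 31 of the small subunit (rps). The rule used names and no measured value. It leaves out 6 ribosomal proteins under other symbols, which are described at the end, and it places some unrelated proteins side by side because their names are alike.

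The experiment had 1 group and no second condition. Whole L1 larvae of strain OP317, with males and females pooled, carried the unc-119 allele ed3 on chromosome III and the transgene insertion wgIs317, which supplies NHR-28 fused to enhanced green fluorescent protein (eGFP). All animals of both biological replicates share this genotype, and whole animals mix all tissues. The age is given as unknown beyond the stage. The replicates are separate biosamples of 1 strain. The antibody label names nhr-28 as the target, and what drives the transgene is not stated there.

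Ribosomes translate messenger RNA. The small subunit reads the codons, and the large subunit joins amino acids and carries the tunnel through which the new protein leaves. Their protein components are among the most heavily expressed genes of growing cells and are made in matched amounts. Nuclear hormone receptors are transcription factors that bind DNA through zinc fingers. In C. elegans, many messenger RNAs receive a spliced leader in place of their original 5′ end, so an annotated gene start can lie downstream of the point where transcription begins.

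The values are regions ranked by the authors' signal, relative to a control, with rank 1 the highest. There were 30000 regions in the list made from both replicates together (signal 12.5 to 1362, median 17.1), in that of replicate 1 (8.37 to 918, median 11.3) and in that of replicate 2 (6.39 to 800.1, median 9.01). These lists include background by construction, so a region is not by itself a bound site. A shorter thresholded list held 159 peaks that passed the authors' reproducibility threshold. The depth of the replicates is unknown, and signal values were compared only within a list.

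Thresholded peaks lay within 1 kb of the starts of 8 ribosomal protein genes. The sequences of 101 bp centred on these summits are shown because they carry the strongest signal of the group. They were read from the WBcel235 (ce11) reference genome, 5′ to 3′ on the strand of the gene. Capitals mark 3 motifs on either strand. The first is TACGGT, which reads ACCGTA on the other strand. The next is GGAGCG, which then reads CGCTCC, and the last is GAGAGA, which then reads TCTCTC. No window overlapped a coding exon or an untranslated region, and that of rps-1 lay over the noncoding RNA genes F56F3.10 and F56F3.11. The windows were rpl-20 at chrIV:4750045-4750145 on the minus strand, rpl-3 at chrIII:3867508-3867608 on the plus strand, rps-1 at chrIII:4475604-4475704 on the plus strand and rpl-12 at chrIV:13240673-13240773 on the minus strand. The others were rpl-15 at chrIV:654920-655020 on the minus strand, rpl-11.2 at chrX:2242933-2243033 on the minus strand, rps-12 at chrIII:5679106-5679206 on the plus strand and rpl-35 at chrIII:7854682-7854782 on the plus strand.
rpl-20: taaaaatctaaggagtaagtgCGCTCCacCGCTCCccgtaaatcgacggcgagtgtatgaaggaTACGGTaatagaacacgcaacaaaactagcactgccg
rpl-3: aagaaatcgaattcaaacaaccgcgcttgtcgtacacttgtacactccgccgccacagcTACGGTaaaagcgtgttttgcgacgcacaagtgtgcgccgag
rps-1: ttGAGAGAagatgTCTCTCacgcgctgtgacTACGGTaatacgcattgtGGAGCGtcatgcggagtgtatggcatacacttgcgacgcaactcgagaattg
rpl-12: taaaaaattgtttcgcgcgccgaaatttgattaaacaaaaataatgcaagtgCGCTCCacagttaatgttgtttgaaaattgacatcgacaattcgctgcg
rpl-15: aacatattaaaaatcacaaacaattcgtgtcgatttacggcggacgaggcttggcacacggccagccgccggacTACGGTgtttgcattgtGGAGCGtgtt
rpl-11.2: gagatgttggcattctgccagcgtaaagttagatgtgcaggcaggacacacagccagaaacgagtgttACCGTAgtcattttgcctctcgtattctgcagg
rps-12: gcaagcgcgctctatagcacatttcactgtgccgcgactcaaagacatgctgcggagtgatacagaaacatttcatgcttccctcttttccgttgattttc
rpl-35: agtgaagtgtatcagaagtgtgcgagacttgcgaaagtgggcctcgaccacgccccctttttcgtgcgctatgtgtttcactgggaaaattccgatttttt

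The median GC content of these windows was 49% (36.6 to 52.5%), against 30.7% in the 957 other nuclear regions ranked within 1000. TACGGT was in 5 of the 8 windows, at rpl-11.2, rpl-15, rpl-20, rps-1 and rpl-3, and was the one 6-base sequence present in at least 5 of them among 557 distinct ones. GGAGCG, picked by eye from the same windows, was in 4 (rpl-20, rps-1, rpl-12 and rpl-15). The windows of rps-12 and rpl-35 held neither. AGGTCA, a half-site bound by many nuclear receptors, was in none of the 8, against 1.46% of those 957 regions, so a count of 0 is near the level elsewhere.

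In the list made from both replicates, 58 of the 78 genes (74.4%) had a region with its summit within 1 kb of the gene start, against 46.2% of all protein-coding genes. Replicate 1 alone gave 61 genes (78.2%) against 48.6% of all genes, and replicate 2 alone also gave 61 (78.2%) against 48.3%. In both replicates' own lists there were 48 (61.5%), against 29.7% of all genes. The count depends on how a region between neighbouring genes is assigned. When a region was given only to the nearest gene start, 33 members (42.3%) had one, against 41.4% of all genes.

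High-ranking regions stood further from the level over all genes. A region ranked within 1000 lay near 18 ribosomal protein genes (23.1%) in the list from both replicates, against 3.15% of all protein-coding genes. Replicate 1 had 15 such genes (19.2%) against 3.09%, and replicate 2 had 13 (16.7%) against 2.66%. In both replicates' own lists 8 genes (10.3%) had one, against 0.771%. The thresholded peaks, at 8 genes (10.3%), compare with 0.56% of all genes. These 8 genes are among the 18 and hold the same ranks in both lists, so this count is not separate from the first. Assigned to the nearest start only, the 18 genes became 10 (12.8%), against 2.44% of all genes. Of the 8 thresholded peaks, 3 had a signal above that list's median of 63.4.

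**Figure D1:**
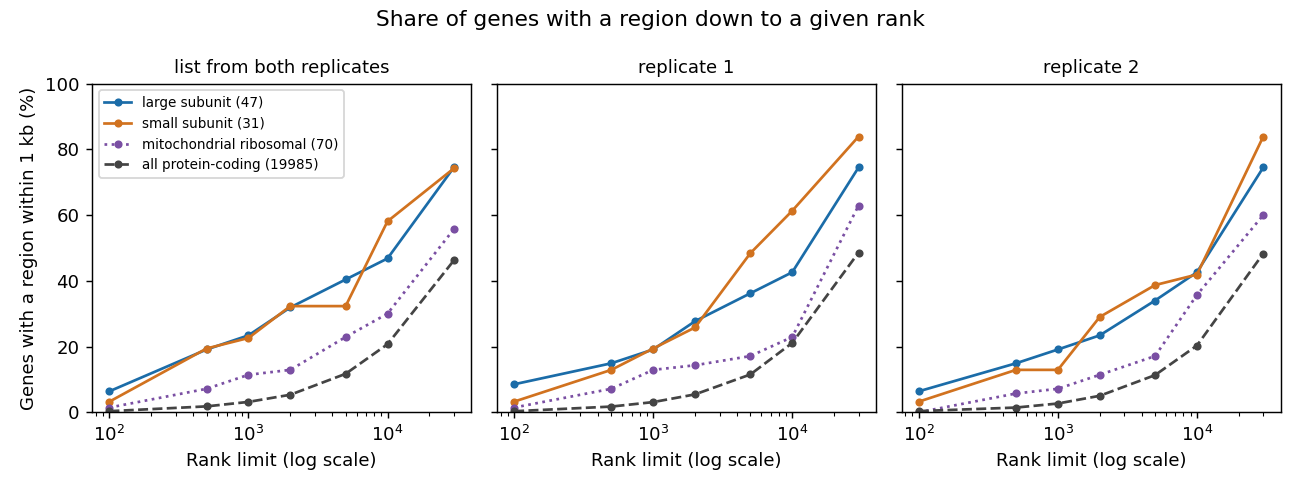
Percentage of genes with a region within 1 kb of the start (vertical axis) down to a given rank (horizontal axis, log scale) in the list from both replicates and in each replicate, for large-subunit, small-subunit, mitochondrial ribosomal and all protein-coding genes. Both subunits lie above all genes at each rank limit drawn, and in the list from both replicates 23.1% of ribosomal protein genes reach rank 1000 against 3.15% of all genes.

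The strongest region near a large-subunit gene was that of rpl-20. It ranked 25 in the list from both replicates (signal 117), 27 in replicate 1 (signal 71.7) and 41 in replicate 2 (signal 39.6), with its summit 317 bp upstream of the start. The start of a neighbouring gene, Y17G9B.5, was nearer to that summit, at 145 bp. The region of rpl-3, whose protein sits near the peptidyl transferase centre, ranked 37 (signal 86.6), 39 in replicate 1 (signal 48.5) and 47 in replicate 2 (signal 34.9), at 296 bp upstream. These 2 genes were high in both replicates.

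The other large-subunit genes with a thresholded peak were less even. The region of rpl-12, a protein at the base of the ribosomal stalk, ranked 97 (signal 57.1), 407 in replicate 1 (signal 24.9) and 81 in replicate 2 (signal 29.3). That of rpl-15 ranked 105 (signal 55.2), 74 in replicate 1 (signal 38.5) and 810 in replicate 2 (signal 18.5). For rpl-11.2, whose protein joins 5S ribosomal RNA together with RPL-5 in other eukaryotes, the ranks were 118 (signal 54.0), 742 in replicate 1 (signal 22.2) and 102 in replicate 2 (signal 27.6). The region of rpl-35, a protein at the rim of the exit tunnel, ranked 132 (signal 52.5) and rested mainly on replicate 1, with rank 77 (signal 38.2) there and rank 3244 (signal 14.0) in replicate 2.

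Among small-subunit genes, rps-1 and rps-12 had thresholded peaks. The region of rps-1, named RPS3A in human, ranked 60 (signal 71.8), 85 in replicate 1 (signal 37.3) and 60 in replicate 2 (signal 31.9), at 264 bp upstream. That of rps-12 ranked 126 (signal 53.2), 184 in replicate 1 (signal 29.4) and 167 in replicate 2 (signal 24.8), at 142 bp upstream. Both small-subunit regions were high in both replicates.

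Just below the thresholded peaks came rps-20, with rank 165 in the list from both replicates, 371 in replicate 1 and 401 in replicate 2. The summit was 224 bp upstream of rps-20 but 173 bp from the start of ekl-4. The region of rps-23, whose protein lies in the decoding centre, ranked 308, 520 in replicate 1 and 2288 in replicate 2. Its summit was 272 bp upstream of rps-23 and 262 bp from the start of dpm-3. The region of rps-26, at the exit of the mRNA channel, ranked 369, 2414 in replicate 1 and 1411 in replicate 2. It was nearest to tmem-107, at 53 bp. The region of rps-28 ranked 443, 179 in replicate 1 and 1083 in replicate 2, with its summit 614 bp upstream. All 4 ranked lower in at least 1 replicate than in the list from both.

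Large-subunit genes in the same range were rpl-27, rpl-29 and rpl-31. The region of rpl-27 ranked 245, 284 in replicate 1 and 1445 in replicate 2, and lay 707 bp downstream of the start of rpl-27 and 71 bp from that of egl-30, which encodes a G protein alpha subunit. The region of rpl-29 ranked 410, 1245 in replicate 1 and 397 in replicate 2. That of rpl-31 ranked 476, 2283 in replicate 1 and 10366 in replicate 2, and was nearer to sac-2, at 134 bp. The region assigned to rpl-27 is thus far closer to another gene's start.

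Several genes were high in 1 replicate. The region of rpl-4, a protein that lines the exit tunnel, ranked 129 in replicate 2 and 2686 in replicate 1. That of rpl-23 ranked 413 in replicate 1 and had no counterpart within 1 kb in replicate 2. The same held for rpl-28, at rank 509 in replicate 1, and for rps-3, whose protein sits at the mRNA entry and whose region ranked 629 in replicate 1. Unlike rpl-23 and rpl-28, rps-3 also had no region within 1 kb in the list from both replicates. The names of rpl-28 and rps-3 were chosen after their values were seen.

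**Figure D2:**
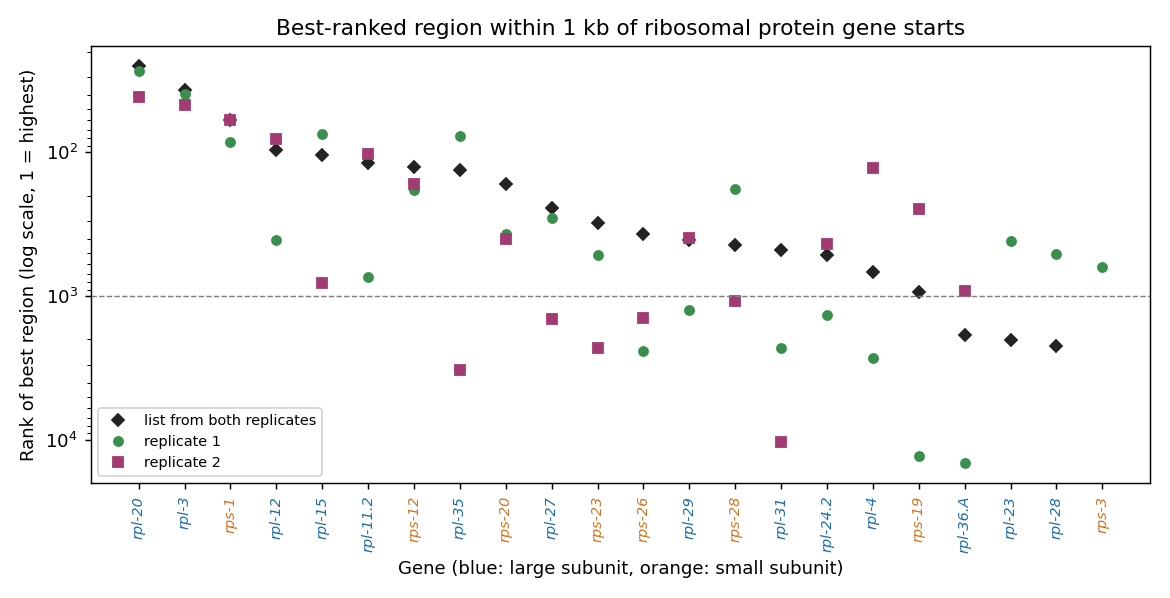
Rank of the best region within 1 kb of the start (vertical axis, log scale, rank 1 at the top) for the 22 ribosomal protein genes that reached rank 1000 in at least 1 list, in the list from both replicates (diamonds), replicate 1 (circles) and replicate 2 (squares). The dashed line is rank 1000. The points of rpl-20, rpl-3 and rps-1 lie close together, and those of rps-19, rpl-35 and rpl-31 far apart.

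Large and small subunit genes had nearly the same share with a region in the list from both replicates. It was 35 of 47 large-subunit genes (74.5%) and 23 of 31 small-subunit genes (74.2%), a difference of 0.275 percentage points. In each replicate alone it was 35 large-subunit genes (74.5%) and 26 small-subunit genes (83.9%), a difference of -9.4 points. At rank 1000 or better there were 11 large-subunit genes (23.4%) and 7 small-subunit genes (22.6%) in the list from both replicates. Replicate 1 gave 9 (19.1%) and 6 (19.4%), and replicate 2 gave 9 (19.1%) and 4 (12.9%). The sign of the difference was not the same across lists, and with 2 replicates of 1 group no test was made.

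The median best rank of the 58 genes with a region was 4447 (quartiles 487 and 11192), against 11404 for all genes with one. It was 3580 against 11906 in replicate 1 and 5987 against 12268 in replicate 2. By subunit, the median in the list from both replicates was 3200 for large-subunit and 5590 for small-subunit genes. In replicate 1 it was 6644 for large-subunit and 3530 for small-subunit genes, and in replicate 2 it was 5987 and 8304. The order of the subunits thus changed between replicates.

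Ranks of the same gene agreed loosely between replicates. Over the 48 genes with a region in both, Spearman's rho was 0.445, against 0.178 over all 5935 such genes. It was 0.603 over 26 large-subunit genes and 0.234 over 22 small-subunit genes, the second near the value over all genes. Some neighbours, such as rpl-39 and rps-30, share 1 region in each replicate, so the 48 genes are not 48 separate regions. Genes of 1 list also share its library and depth, so these values of rho are descriptions. The best summits of the replicates lay within 200 bp of each other for 33 of the 48 (68.8%), against 41.1% of all such genes. Counting any summit within 1 kb, it was 37 (77.1%), against 57.5%. Members' summits lay more often 200 to 500 bp upstream than those of all genes. These shares therefore do not compare agreement between the 2 sets. The median ratio of the larger to the smaller rank was 3.91, against 2.27 over all genes. Such a ratio can be larger among high ranks, where more of the members lay, so it does not compare agreement between the 2 sets.

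The largest ratio was that of rps-19, whose human counterpart is mutated in Diamond-Blackfan anaemia. Its best region ranked 13048 in replicate 1 and 246 in replicate 2, a ratio of 53, and the 2 summits were at different places, 832 and 226 bp upstream. Next came rpl-35, with a ratio of 42.1. The neighbours rpl-39 and rps-30 share 1 region within each list, at rank 29848 in replicate 1 and 1150 in replicate 2, a ratio of 26. Here too the summits differed in place, 112 bp downstream of the start of rpl-39 in replicate 1 and 97 bp upstream in replicate 2.

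**Figure D3:**
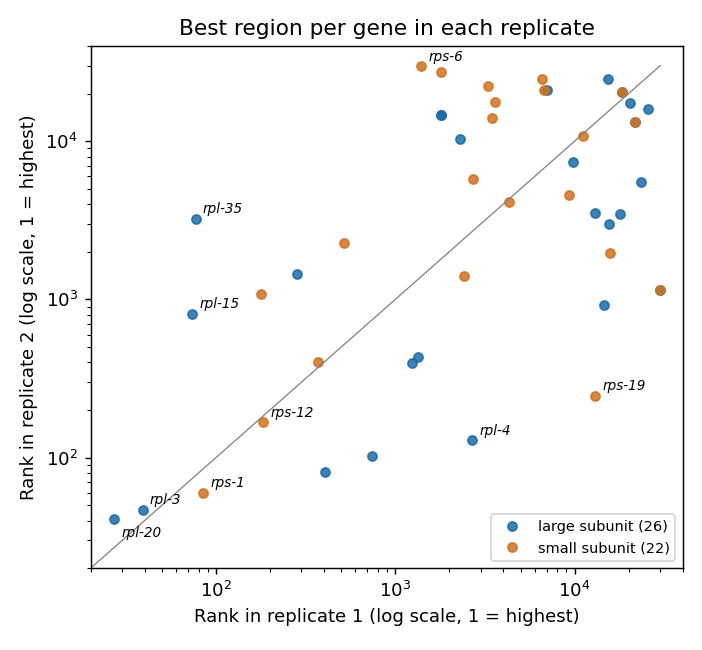
Rank of the best region in replicate 1 (horizontal axis, log scale) and replicate 2 (vertical axis, log scale) for the 48 ribosomal protein genes with a region in both, coloured by subunit, with the line of equal ranks. rps-12, rps-1, rpl-3 and rpl-20 lie near the line at high rank, and rps-19 and rpl-35 lie far from it.

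The regions lay mostly upstream of the genes. Of the 58, 51 (87.9%) had the summit upstream of the start, against 63.1% of all genes with a region. The median distance of those upstream was 304 bp, against 402 bp for all genes. A distance of 200 to 500 bp upstream held 34 of the 58 (58.6%), against 22.5% of all genes. By subunit, 29 of 35 large-subunit genes (82.9%) and 22 of 23 small-subunit genes (95.7%) had an upstream summit. The summit was intergenic for 44 genes, in a noncoding exon for 8, in an intron for 3, in a 5′ untranslated region for 2 and in a coding exon for 1.

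**Figure D4:**
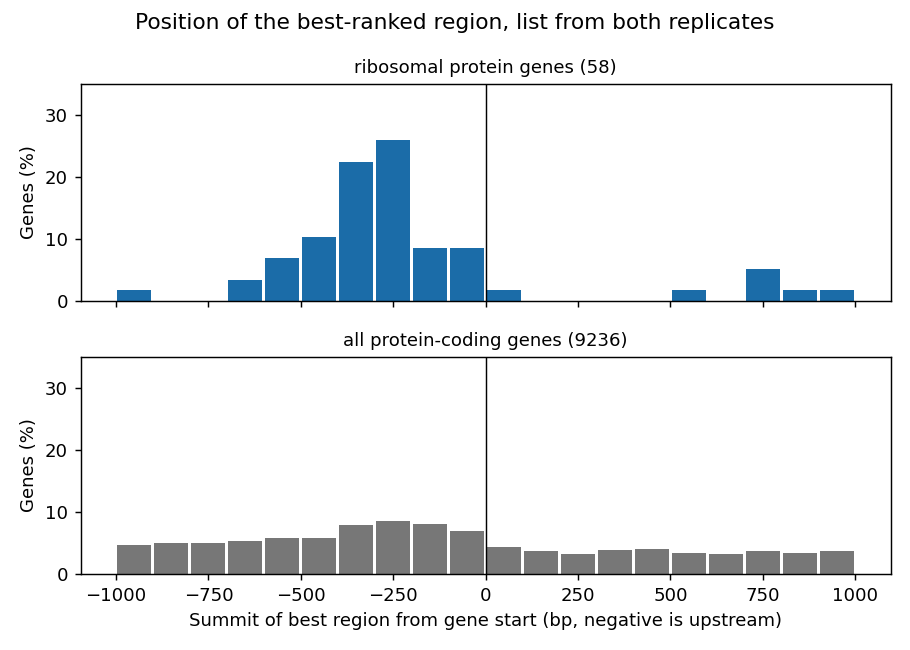
Distance from the gene start to the summit of the best region in the list from both replicates (horizontal axis, bp, negative is upstream) as a percentage of genes per 100 bp (vertical axis), for ribosomal protein genes (above) and all protein-coding genes (below). In the upper panel 58.6% lie 200 to 500 bp upstream, against 22.5% in the lower panel.

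Many of these regions lie between closely spaced genes. The 58 genes had 55 distinct best regions, with 1 region each shared by rpl-24.1 and rps-10, by rpl-39 and rps-30, and by rpl-41.1 and rpl-41.2. The ribosomal protein gene was the nearest start to its region for 30 of the 58 (51.7%), against 86.4% of all genes with a region. No other gene start lay within 1 kb of the summit for 16 (27.6%), against 73.4%. The list does not say which neighbour a region belongs to.

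Gene spacing differed accordingly. The median gap to the next gene upstream was 558 bp for the ribosomal protein genes and 937 bp for all nuclear protein-coding genes. That neighbour ran the other way, at any distance, for 52 members (66.7%), against 42.2%. It did so from under 1 kb away for 47 members (60.3%), against 17.2%. Among genes with such a neighbour under 1 kb away, 11 of 47 members (23.4%) had a region ranked within 1000, against 5.62% of all genes so placed. In any other arrangement it was 7 of 31 members (22.6%), against 2.57%. At this rank limit the share of members was similar in either arrangement, while that of all genes was not. With a region of any rank it was 37 of 47 members (78.7%) and 21 of 31 (67.7%). The shares of all genes so placed were 46.8% and 46.1%.

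Genes with a region can be set beside those without. The median gap was 582 bp for the 58 genes with a region in the list from both replicates and 496 bp for the 20 without. Over all nuclear protein-coding genes it was also longer with a region, 992 bp against 880 bp. A divergent neighbour was present for 41 of 58 members (70.7%) with a region and 11 of 20 (55%) without. Over all nuclear protein-coding genes the shares were 43.2% and 41.3%. No region was found in any of the 3 lists for 4 genes (5.13%), against 30.8% of all genes. They were rpl-25.1, and rpl-10, rpl-26 and rps-2, named after their values were seen. At the distance limit, the genes just inside were rpl-41.1 at 790 bp, rpl-43 at 857 bp and rpl-25.2 at 968 bp, and those just outside were rpl-25.1 at 1285 bp, rpl-42 at 1293 bp and rpl-21 at 1416 bp.

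Genes with matching names were set side by side. For the RPL11 pair, the region of rpl-11.2 ranked 118 in the list from both replicates. That of rpl-11.1 ranked 11278 there, with 23404 in replicate 1 and 5521 in replicate 2. The start of T22F3.2 was nearer to the rpl-11.1 summit in the list from both replicates, at 248 bp. The region of rpl-24.2, whose protein resembles a ribosome assembly factor, ranked 520, 1344 in replicate 1, where the summit was elsewhere at 849 bp upstream, and 431 in replicate 2. That of rpl-24.1 ranked 14613, 21692 in replicate 1 and 13146 in replicate 2. For rpl-25.2 the ranks were 26773, 15447 and 24803 in the same order, with summits at different places, 968, 305 and 550 bp upstream. The first of these summits was 165 bp from the start of C34B7.1. rpl-25.1 had no region. These 3 pairs differed in rank in the list from both replicates or in whether a region was found. The region shared by rpl-41.1 and rpl-41.2, which encode one of the smallest ribosomal proteins, ranked 1665, 1811 in replicate 1 and 14652 in replicate 2.

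Similar names can also join different proteins. rpl-36 had no region in the list from both replicates. Its ranks were 18374 in replicate 1, with the summit 221 bp upstream, and 20558 in replicate 2, at 569 bp upstream. Both regions are also those of rps-14, whose start was 94 bp from the summit in replicate 2. rpl-36.A had rank 1855, but that summit was 703 bp downstream and 23 bp from the start of nbs-1. In replicate 2 it ranked 923, with the summit 743 bp downstream. The best region in replicate 1, at rank 14528, was elsewhere, 301 bp upstream. rpl-7 ranked 20402, 20398 in replicate 1 and 17498 in replicate 2. Its summit was 371 bp upstream in replicate 1 and 28 bp downstream in replicate 2. rpl-7A was present only in replicate 2, at rank 11800.

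In the list from both replicates, the members with a region ranked within 1000 were spread over 4 chromosomes. They were 7 of 23 genes on I, 4 of 18 on III, 6 of 17 on IV and 1 of 2 on X, with none of the 10 on II or the 8 on V. Of all genes, 4.13% on I, 4.17% on III, 3.32% on IV and 2.34% on X had such a region, against 2.46% on II and 2.62% on V, so a count of 0 among 10 or 8 genes is near the level over all genes. The gene on X was rpl-11.2. In single replicates the limit was also reached on II by rpl-36.A, at rank 923 in replicate 2, and on V by rpl-28, at rank 509 in replicate 1.

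TACGGT was searched beyond the windows it was read from. Of the 10 other best regions ranked within 1000, 3 (30%) held it within the 101 bp around the summit, and of the 37 ranked below 1000, 5 (13.5%) did. It was in 2.82% of the 957 other nuclear regions ranked within 1000, in 3.89% of the 463 of these within 1 kb of a gene start, and in 2.55% of the 28943 others ranked below 1000. GGAGCG was in none of those 10, against 3.03% of the 957 and 5.18% of the 463. It was in 3 of the 37 (8.11%), against 0.888% of the 28943.

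In the 500 bp before the start, TACGGT was found at 36 of the 78 genes (46.2%), against 13.9% of 19973 nuclear protein-coding genes. From 250 bp before to 50 bp after the start it was at 13 (16.7%), against 8.11%. Without the 8 genes whose windows gave the motif, it was 31 of 70 (44.3%). It was present at 9 of 18 genes with a region ranked within 1000 (50%), 17 of 40 with a lower-ranked one (42.5%) and 10 of 20 with none (50%). The match was thus about as frequent at ribosomal protein genes with and without a region. Its median place was 288 bp before the start (quartiles 222 and 370). A match is a run of letters, and binding to it was not measured.

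**Figure D5:**
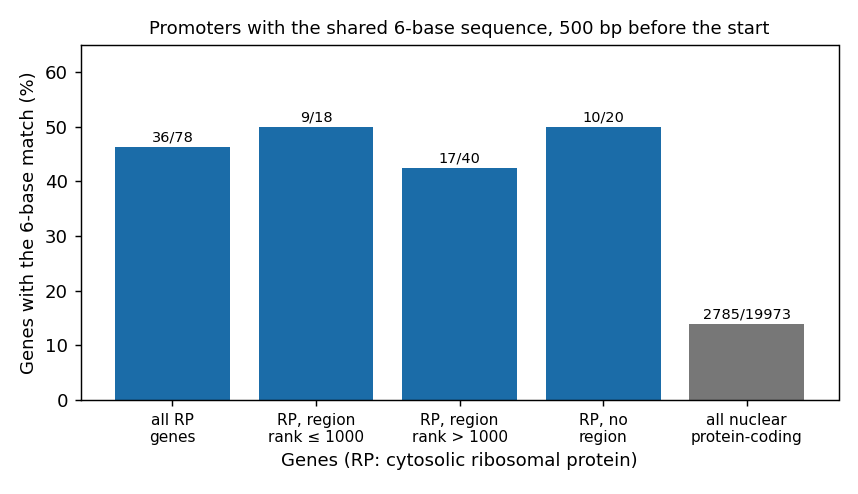
Percentage of genes with the 6-base sequence TACGGT on either strand in the 500 bp before the start (vertical axis) for all ribosomal protein (RP) genes, those with a region ranked within 1000, those with a lower-ranked region, those with none, and all nuclear protein-coding genes, with counts above the bars. The ribosomal bars lie between 42.5% and 50%, against 13.9% for all genes.

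Other motifs were searched from 250 bp before to 50 bp after the start, on both strands. GAGAGA was at 17 members (21.8%), against 21.8% of all nuclear genes. AGGTCA was at 6 (7.69%), against 8.27%. TATAAA was at 21 (26.9%), against 37.9%, and CACGTG at 1 (1.28%), against 5.82%. TTTTTT was at 72 (92.3%), against 80.1%, TGATAA at 23 (29.5%), against 30.2%, and CTGCGTCT at none, against 3.54%. Taken from 500 bp before the start, TATAAA was at 53.8% of members against 56% of all genes, and CTGCGTCT at 5 members (6.41%) against 5.52%, so the lower shares of both depend on the window. The median GC content of these promoters was 33%, against 34.3%.

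Other genes of the ribosome were counted in the same way. The 6 cytosolic ribosomal proteins under other symbols were the stalk proteins rla-0, rla-1 and rla-2, the ubiquitin fusions ubl-1 and ubq-2, and rack-1. In the list from both replicates 5 of them (83.3%) had a region, against 46.2% of all genes. None was ranked within 1000, where 3.15% of all genes leaves little to count among so few. The best were ubl-1 at 4562 and rla-0 at 4928, and rla-2 had no region in any list. Mitochondrial ribosomal proteins, which serve the separate ribosomes of that organelle, had a region at 39 of 70 genes (55.7%), with 8 (11.4%) ranked within 1000, against 46.2% and 3.15% of all genes. In replicate 1, 9 (12.9%) were ranked within 1000, against 3.09%, and in replicate 2 it was 5 (7.14%), against 2.66%. Their share within rank 1000 thus lay above that of all genes in each list, and below the 23.1%, 19.2% and 16.7% of the cytosolic genes. The difference between the 2 sets was not tested. The sets are not fully separate, since mrpl-49, at rank 509 in replicate 1, has the same region as rpl-28. In replicate 2, mrpl-1 and mrps-24 share 1 region, at rank 271. The 1 thresholded peak of the mitochondrial set was at mrpl-28, rank 78. Of 11 nucleolar and assembly factor genes, 8 (72.7%) had a region, against 46.2% of all genes. The region of 1 of them, lpd-7, at rank 16991, is also that of rpl-9. None of the 11 was ranked within 1000 in any list, which is near the 3.15% of all genes for so few. The best of them was eif-6, whose protein keeps the subunits apart, at 3267.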

How the data were processed

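eGFP-NHR-28 ChIP-seq of L1 larvae was analysed as 1 group of 2 biological replicates, numbered by the labels. Per the file listing deposited with the samples, the authors made narrowPeak lists of peaks together with background from each replicate and from both replicates, each with a control alignment. The irreproducible discovery rate then gave the thresholded list. It is a score of rank agreement across replicates. Column 7 of the deposited lists holds the signal that the authors gave each region, and it orders regions within 1 list only. For the aligner, the peak caller, their settings and the threshold, details were not given in the sources used here. Without read counts, sequencing depth is unknown for both replicates.

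The ce11 lists were read against the WBcel235 genome with Ensembl release 115 genes, and no region reached past a chromosome end. The ce10 lists were not used because no ce10 gene annotation was at hand. Each gene was given its highest-signal region with a summit within 1 kb of the gene start, the 5′ end of the gene model. One region could serve several genes. Shares over all protein-coding genes, members included, stand beside those of the members. No test was made: there is no second condition, and genes of 1 experiment are not replicates. The assignment was tested on simulated data.

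The members, gene lists and motifs were chosen with earlier results of these data known. Genes were named if they had a thresholded peak, a best rank within 500 in any list, 1 of the 3 largest rank ratios between replicates, or a name shared up to a dot or added letter. Any further gene was picked with its values in view, as were the motifs TACGGT and GGAGCG. Python 3.11.15 and numpy 2.4.6 were used.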

Additional observations from a re-analysis of the deposited data

How the results depend on the processing

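Of 25 alternative values of the counts and the median rank, 3 moved, all of them counts that changed by more than 1.5 times. A median rank was called moved if it differed by more than the standard deviation of the 2 single-replicate medians. None did, but those 2 medians were themselves among the alternatives. Giving a region to the nearest start only took the genes with a region to 33 and those ranked within 1000 to 10. Keeping thresholded peaks with a signal above the list's median took the genes with a peak to 3. The large minus small difference was -2.81 points at 500 bp, 3.43 at 2 kb, 5.97 with the nearest start only, -2.88 with upstream summits only and -9.4 in each replicate alone. Single replicates gave 61 genes with a region, 13 to 15 ranked within 1000 and a median rank of 3580 to 5987. With a promoter window of 500 bp before the start, 7 of 9 motif counts moved, GAGAGA to 33 members (42.3%, against 32.2% of all genes), TATAAA to 42 (53.8%, against 56%), CTGCGTCT to 5 (6.41%, against 5.52%), TGATAA to 36 (46.2%, against 46.2%), CACGTG to 2 (2.56%, against 9.44%), TACGGT to 36 (46.2%, against 14.9%) and GGAGCG to 17 (21.8%, against 8.85%). No paired analysis was possible because the 2 samples form 1 group. Each of the 3 lists held 30000 regions, and a gene without a region had none among those. The lowest signal was 12.5 in the list from both replicates, 8.37 in replicate 1 and 6.39 in replicate 2. Depth, caller and the details of the control are unknown, so a missing region cannot be told apart from shallow sequencing. Accessibility of these promoters was not measured.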
